A study of Mus musculus with 20 samples.

Results

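The Gadd45 family of the mouse holds 3 genes, Gadd45a, Gadd45b and Gadd45g, among 8251 genes with a single symbol on the array. Members were found by annotation alone, as every probe set assigned to one of these symbols, which gave 4 probe sets of 12488. Gadd45a and Gadd45g had 1 probe set each, and Gadd45b had 2. All 4 probe sets passed the filter on low values, for which a probe set had to exceed the 40th percentile of an array's intensities in 3 or more of the 13 arrays that have replicates. Gadd45g and the main Gadd45b probe set were above that percentile on all 20 arrays, the second Gadd45b probe set on 15 and the Gadd45a probe set on 18.

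GADD45 proteins (growth arrest and DNA damage inducible) are small acidic nuclear proteins without a known enzymatic activity of their own. They bind the kinase MAP3K4 and relieve its autoinhibition, which switches on the p38 and JNK mitogen-activated protein kinases, and they also bind cell cycle proteins such as CDK1, PCNA and p21. In mouse T cells Gadd45b and Gadd45g are known as genes induced by IL-12 and IL-18 that promote interferon-gamma production through p38. Gadd45a is the classical p53 target of the family and is known to restrain an alternative route of p38 activation below the T cell receptor.

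The arrays profiled CD44lo CD8+ T cells from lymph nodes of C57Bl6 mice aged 6 to 8 weeks that carried the OT-1 T cell receptor transgene, whose product recognises an ovalbumin peptide held by H-2Kb. The stimulated cells were grown with latex microspheres that presented the H-2Kb:peptide complex (Ag) together with the costimulatory ligand B7-1 (B7). Murine rIL-12 was added in the groups called here Ag-B7 with IL-12 and universal type I interferon in those called Ag-B7 with IFNa/b, while 1 culture received trichostatin A (TSA), an inhibitor of histone deacetylases. All cultures, those without an addition included, also held human rIL-2. Ag-B7 with IL-12 and Ag-B7 with IFNa/b each had 3 arrays at 48 h, Ag-B7 alone had 4 arrays at 48 h, and the naive cells at 0 h had 3 arrays. At 24 h Ag-B7 with IL-12, Ag-B7 with IFNa/b and Ag-B7 alone had 1 array each. At 72 h these same conditions and Ag-B7 with TSA had 1 array each, so the 24 h and 72 h values carry no replicate error. No culture without Ag-B7 is among the 20 arrays, so the effects of antigen, IL-2 and time in culture cannot be told apart. The labels call the replicates biological but do not say whether they came from separate mice, so the p-values measure the spread between these samples.

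The promoters of the 3 genes are shown as the regulatory sequence next to the transcripts measured here. Each window runs from 250 bases before to 50 bases after the RefSeq transcription start (build GRCm38.p6), 5′ to 3′ on the gene's strand, and all 3 members matched the table. The Gadd45a window is chr6:67037358-67037657 on the minus strand, the Gadd45b window is chr10:80929841-80930140 on the plus strand and the Gadd45g window is chr13:51846425-51846724 on the plus strand. Capitals mark matches, on either strand, to the searched motifs.
Gadd45a: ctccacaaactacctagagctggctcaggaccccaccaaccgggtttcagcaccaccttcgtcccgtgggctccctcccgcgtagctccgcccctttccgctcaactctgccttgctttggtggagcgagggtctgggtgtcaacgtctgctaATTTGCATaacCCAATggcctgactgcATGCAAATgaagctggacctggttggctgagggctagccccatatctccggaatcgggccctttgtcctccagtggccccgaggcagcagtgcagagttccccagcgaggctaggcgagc
Gadd45b: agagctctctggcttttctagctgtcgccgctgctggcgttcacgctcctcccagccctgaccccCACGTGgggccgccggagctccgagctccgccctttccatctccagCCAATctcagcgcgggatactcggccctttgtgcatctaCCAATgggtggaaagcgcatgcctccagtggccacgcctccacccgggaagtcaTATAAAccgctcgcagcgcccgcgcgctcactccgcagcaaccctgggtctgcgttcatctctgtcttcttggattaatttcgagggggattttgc
Gadd45g: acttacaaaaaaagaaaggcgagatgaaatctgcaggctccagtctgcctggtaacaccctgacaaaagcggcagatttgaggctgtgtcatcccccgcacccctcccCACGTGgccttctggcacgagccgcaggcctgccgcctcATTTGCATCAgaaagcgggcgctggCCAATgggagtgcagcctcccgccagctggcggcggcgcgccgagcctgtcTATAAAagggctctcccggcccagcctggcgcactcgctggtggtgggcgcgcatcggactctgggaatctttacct
The Gadd45b and Gadd45g windows each hold a TATA box (TATAAA) and an E-box (CACGTG), while the Gadd45a window holds neither of these letter strings. A CCAAT box (CCAAT) lies once in the windows of Gadd45a and Gadd45g, and in 2 places in that of Gadd45b. The octamer ATGCAAAT occurs in 2 places in the Gadd45a window, in opposite orientations, and once in the Gadd45g window, where it overlaps the only match to the C/EBP-ATF string TTGCATCA. Over 32807 mouse promoter windows of the same length, the TATA string was present in 13.6%, the CCAAT string in 37.4%, the E-box in 7.15%, the octamer in 1.74% and the C/EBP-ATF string in 0.896%. The cyclic AMP response element TGACGTCA (1.79% of windows), the AP-1 string TGANTCA (7.82%), the GAS string TTCNNNGAA (8.29%), the ISRE (3.43%) and the NF-kappaB decamer (8.46%) had no match in the 3 windows. These matches describe letters in the windows and were not tested for binding. The windows had a GC content of 61.0% for Gadd45a, 62.0% for Gadd45b and 62.3% for Gadd45g, where the median promoter had 52.7%. They held 14 CpG dinucleotides for Gadd45a, 24 for Gadd45b and 21 for Gadd45g, where the median promoter held 7.

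The identity of the cells was checked with T cell markers, and Cd8a, Cd8b1 and Cd3e had log2 values of 12.60 or higher on every array. Markers of myeloid cells were more abundant in the naive preparations. The summed intensity of the 10 myeloid and dendritic cell markers on the array was 2486 to 5068 in Ag-B7 at 48 h and 14050 to 17840 in naive cells. With the deposited scaling all 6 of them that passed the filter fell, 6 of 6, in limma's test with Benjamini-Hochberg adjustment, with C1qb at a log2 difference of -3.30. A marker bright on the 3 naive arrays alone could pass that filter, which favours a fall here. In this comparison 35.6% of all genes were called lower and 26.1% higher. Of 5 tested B cell markers 2 were lower (Cd79a and Ms4a1) and 1 higher (H2-Ab1, at 2.38) in the same comparison, and the summed B cell signal overlapped, at 1445 to 2733 in Ag-B7 at 48 h and 1640 to 3564 in naive cells. The summed signal of 3 erythroid and platelet markers was 411 to 693 in Ag-B7 at 48 h and 6210 to 14510 in naive cells. The 3' to 5' signal ratio of the actin control, a measure of RNA integrity, reached 1.15 in stimulated cells and 2.06 in naive cells (replicate 2). The part of these differences in the results below was not tested. In these bulk samples fewer cells of a type and less RNA per cell cannot be told apart. Differences are given as log2 of the intensity plus a pseudocount of 46.5, which understates changes of dim probe sets. On this scale the median gene lay at -0.23 in Ag-B7 at 48 h against naive, at 0.04 after quantile normalization, at 0.41 after centring each array on its median and at 1.54 after scaling by the spiked-in control RNAs. Differences from naive cells, those of the markers above included, depend on that choice. Between stimulated groups at 48 h the median gene lay between -0.29 and 0.09 under all of these scalings.

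Gadd45g rose with IL-12. Its intensity was 5326, 1910.3 and 2771 in Ag-B7 with IL-12 at 48 h, against 548, 661, 645 and 1329 in Ag-B7 alone. All 3 arrays with IL-12 lay above all 4 arrays without it, and the lowest array with IL-12 stood next to replicate 4 of Ag-B7. The log2 difference was 1.96 ± 0.34 (SE, 95% interval 1.23 to 2.69), which is 3.89-fold, with an adjusted p of 0.012 in limma's moderated test. Of 6278 genes tested, 0.382% were called higher and 0.239% lower in this comparison, 3.55% had all arrays higher, and Gadd45g was number 16 by size of rise. Gadd45g was the only member called, 1 of 3. IL-12 replicate 1 carried part of this result, since without it the difference was 1.56 with an adjusted p of 0.0968. With the arrays scaled by the spiked-in controls the difference was 1.76 with an adjusted p of 0.252.

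The same-numbered cultures of these 2 groups had correlations of 0.276 to 0.280 between their deviations, against -0.301 to 0.176 for different numbers. Different-numbered arrays of Ag-B7 and Ag-B7 with IFNa/b reached 0.454, so such values do not identify pairs. The labels give no pairing, and the 3 pairs below are a reading by number. The Gadd45g difference, IL-12 minus Ag-B7, was 3.18 in pair 1, 1.47 in pair 2 and 2.03 in pair 3. These are rises of 9.04-fold, 2.77-fold and 4.07-fold. As the 2 groups did not overlap, any pairing had to give rises, so their shared direction adds no support. With the replicate number as a block the difference was 2.22 with an adjusted p of 0.00402 in limma. That fit put the block on all 13 replicated arrays, naive and IFNa/b included, so it is not a test of these pairs alone. Replicate 4 exists in Ag-B7 alone, so its block level absorbs that array, the brightest of Ag-B7 (1329). The difference of 2.22 therefore does not draw on it, unlike the 1.96 of the fit without a block.

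**Figure D1:**
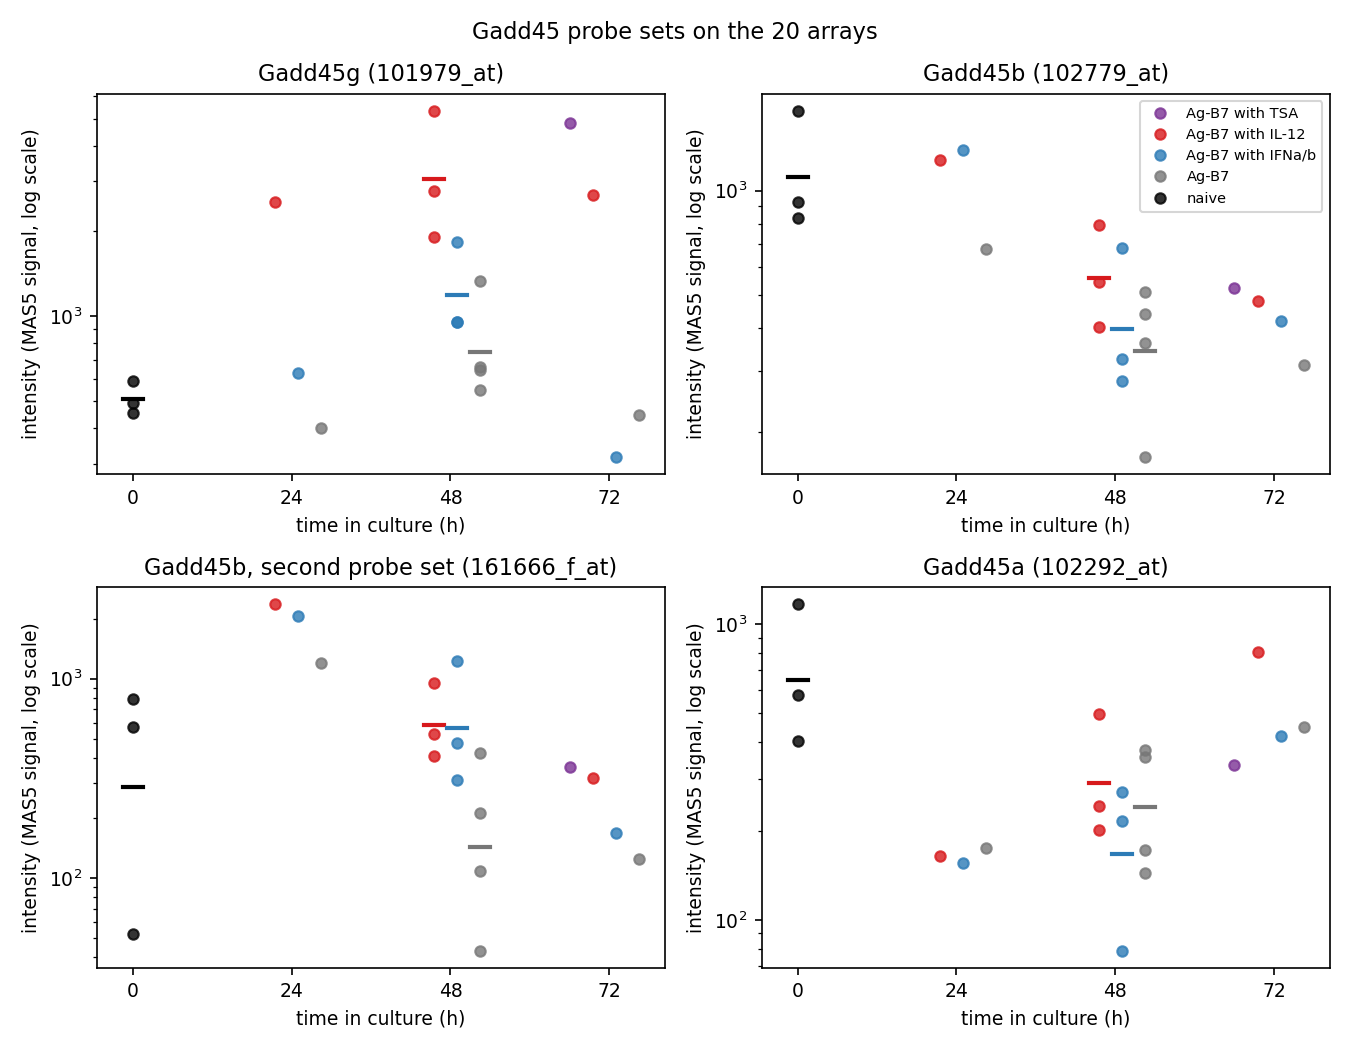
Intensity (MAS5 signal, log axis) of the 4 Gadd45 probe sets on the 20 arrays against time in culture in hours. Points are arrays, shifted sideways by condition, and bars are geometric means of groups with replicates; the arrays with IL-12 and the array with TSA stand above the others for Gadd45g, while the highest single array is a naive one for the main Gadd45b probe set (1702) and for Gadd45a (1169.9), with the deposited scaling.

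With type I interferon the Gadd45g difference from Ag-B7 alone did not pass the test. The intensity was 949.6, 955 and 1827 in Ag-B7 with IFNa/b at 48 h, against the 548 to 1329 given above for Ag-B7 alone. The groups overlapped through Ag-B7 replicate 4. The log2 difference was 0.63 ± 0.34 (95% interval -0.10 to 1.36, adjusted p = 1). No member was called in this comparison (0 of 3), where 0.414% of genes were called higher and 0.0159% lower. Set directly against each other at 48 h, the cultures with IL-12 and with IFNa/b did not overlap, as the lowest with IL-12 had 1910.3 and the highest with IFNa/b 1827. The log2 difference between these 2 cytokines was 1.33 ± 0.37 (95% interval 0.55 to 2.11), with an adjusted p of 0.164, so it did not pass. In that comparison 0.287% of genes were called higher, 0.653% were called lower and 6.04% had all arrays higher.

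Gadd45g was also high in the single cultures with IL-12 at 24 h and 72 h. At 24 h its intensity was 2524 with IL-12, 629 with IFNa/b and 401 in Ag-B7 alone. At 72 h it was 4827 with TSA, 2674 with IL-12, 317 with IFNa/b and 446 in Ag-B7 alone. The cultures with IL-12 stood above those with IFNa/b and Ag-B7 alone at both times, and the culture with TSA was the highest at 72 h, while the culture with IFNa/b was above Ag-B7 at 24 h and below it at 72 h. The log2 difference of IL-12 from Ag-B7 was 2.52 at 24 h (5.75-fold), number 5 by size of rise among 6278 genes, of which 2.15% were at least 2-fold higher. At 72 h the difference was 2.47 (5.52-fold), number 30, where 5.22% of genes were at least 2-fold higher. TSA gave the largest difference among the additions for any member, 3.31 from Ag-B7 at 72 h (9.89-fold), number 7, where 7.09% of genes were at least 2-fold higher. TSA stood 0.84 above IL-12 at 72 h on the log2 scale. For comparison, the residual SD of Gadd45g between replicated arrays was 0.53, and a difference between single arrays has a larger spread than that. With 1 array each these differences have no test. The summed myeloid marker signal at 72 h was 5995 with TSA, 5355 with IL-12, 8221 with IFNa/b and 9598 in Ag-B7 alone, and its part in the 72 h values was not tested.

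**Figure D2:**
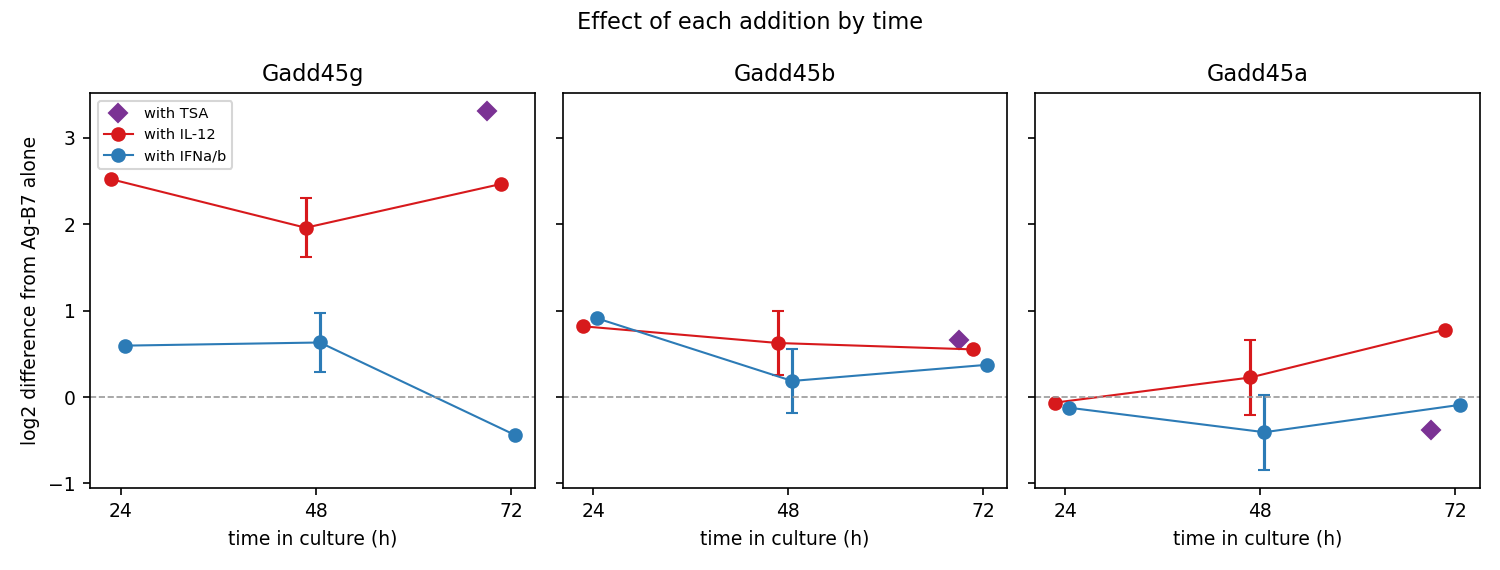
Log2 difference of each addition from Ag-B7 alone against time in culture in hours, for Gadd45g, Gadd45b and Gadd45a. Error bars at 48 h are standard errors of the limma fit (3 arrays with the cytokine and 4 with Ag-B7 alone), and the 24 h and 72 h points are 1 array against 1; IL-12 lies between 1.96 and 2.52 for Gadd45g at all 3 times, and TSA at 3.31.

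Against naive cells, Gadd45g rose in both cytokine conditions. Naive intensities were 591, 452 and 494, below all 3 arrays with IL-12 and all 3 with IFNa/b at 48 h. The log2 difference was 2.48 ± 0.37 for IL-12 (5.57-fold, adjusted p = 3.98e-05), where 24.8% of genes were called higher and 25.6% had all arrays higher. It was 1.15 ± 0.37 for IFNa/b (2.22-fold, adjusted p = 0.0139), where 25.3% of genes were called higher and 26.9% had all arrays higher. For IFNa/b it was 0.85 with an adjusted p of 0.0807 without IFNa/b replicate 3. For Ag-B7 alone the groups overlapped at replicate 1 of each, and the difference was 0.52 ± 0.34 (95% interval -0.21 to 1.24, adjusted p = 0.201). That last value passed under other scalings, at 1.04 after quantile normalization, 1.16 after median centring and 2.29 after spike-in scaling, with adjusted p of 0.0192, 0.0169 and 9.28e-05. In each comparison with naive cells a large share of all genes was called, and the calls of the members are not set apart from it.

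Gadd45b, read from the brighter of its probe sets, was lower in Ag-B7 at 48 h than in naive cells with the deposited scaling, a call lost under median centring and a direction that turned with spike-in scaling. Its intensity was 439, 169, 509 and 363 in Ag-B7 at 48 h, against 925, 831 and 1702 in naive cells. All 4 stimulated arrays lay below all 3 naive arrays. The log2 difference was -1.54 ± 0.37 (2.91-fold lower, adjusted p = 0.00216) with the deposited scaling, and it turned to 0.23 with spike-in scaling. Median centring gave -0.90, which did not pass (adjusted p = 0.0557). Measured from the median gene, the difference was -1.31. Both Gadd45b and Gadd45a were called lower here, 2 of 3 members, where 35.6% of all genes were called lower, 26.1% were called higher and 31.7% had all arrays lower.

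With cytokine, Gadd45b did not pass the test against Ag-B7 alone. Ag-B7 with IL-12 had 796, 402 and 543 at 48 h and Ag-B7 with IFNa/b had 684, 325 and 282, and both sets overlapped the 169 to 509 of Ag-B7 alone. The log2 difference from Ag-B7 was 0.63 ± 0.37 for IL-12 (95% interval -0.16 to 1.42, adjusted p = 0.998). For IFNa/b it was 0.19 ± 0.37 (95% interval -0.60 to 0.98, adjusted p = 1). Read by replicate number, IL-12 minus Ag-B7 was 0.79, 1.06 and 0.09, but the labels give no pairing. Other matches change sign, as IL-12 replicate 2 (402) lay below Ag-B7 replicate 3 (509). With the replicate block the difference was 0.65 (adjusted p = 0.841 in limma). Between IL-12 and IFNa/b the difference without a block was 0.44 ± 0.40 (95% interval -0.41 to 1.28).

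The single arrays at 24 h had more Gadd45b than those at 72 h in each condition. At 24 h the intensity was 1228 with IL-12, 1312 with IFNa/b and 676 in Ag-B7 alone, and at 72 h it was 523 with TSA, 479.9 with IL-12, 419 with IFNa/b and 313 in Ag-B7 alone. Each addition was above Ag-B7 alone at both times, by 0.82 for IL-12 and 0.91 for IFNa/b at 24 h on the log2 scale. At 24 h 1.69% of genes were at least 2-fold higher with IFNa/b, and neither Gadd45b value reached 2-fold. At 72 h, where 3.93% of genes were at least 2-fold higher with IFNa/b, the differences were 0.67 for TSA, 0.55 for IL-12 and 0.37 for IFNa/b. The residual SD between replicated arrays was 0.56, and a difference between single arrays has a larger spread than that.

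The second Gadd45b probe set differed from the main one in naive cells. Its intensity was 945, 526 and 407 in Ag-B7 with IL-12, 1228, 474 and 311 in Ag-B7 with IFNa/b, and 423, 211, 43.1 and 108 in Ag-B7 alone at 48 h. Naive cells had 569.6, 52.3 and 792. Naive replicate 2, the array with the highest actin ratio, was thus far below the other naive arrays. The lowest value of this probe set, 43.1, was on Ag-B7 replicate 3, whose actin ratio was 1.05. The part of RNA integrity in these values was not tested. The log2 difference of Ag-B7 from naive was -0.87 ± 0.67 (adjusted p = 0.264, 8569 probe sets fitted). Against naive cells the probe sets had opposite signs in the cytokine groups, with 0.78 for IL-12 and 0.74 for IFNa/b from the second probe set and -0.91 for IL-12 and -1.35 for IFNa/b from the main one. Against Ag-B7 alone both probe sets were higher with IL-12, by 1.65 ± 0.67 in the second (95% interval 0.24 to 3.06, adjusted p = 0.662). The second probe set was also higher with IFNa/b, by 1.61 ± 0.67 against Ag-B7 alone (95% interval 0.20 to 3.02, adjusted p = 0.963), where the main one had 0.19, and its difference between IL-12 and IFNa/b was 0.04. At 24 h the second probe set had 2359 with IL-12, 2066 with IFNa/b and 1195 in Ag-B7 alone, with both additions above Ag-B7 as in the main one. At 72 h it had 361 with TSA, 315 with IL-12, 167 with IFNa/b and 124 in Ag-B7 alone, the same order as the main probe set.

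Gadd45a was lower in Ag-B7 at 48 h than in naive cells with the deposited scaling, a call lost under quantile normalization and median centring and a direction that turned with spike-in scaling. Its intensity was 376, 144, 173 and 356 in Ag-B7 at 48 h, against 1169.9, 402 and 575 in naive cells. All 4 stimulated arrays lay below the naive ones, the closest being Ag-B7 replicate 1 and naive replicate 2. The log2 difference was -1.26 ± 0.44 (2.40-fold lower, adjusted p = 0.0191) with the deposited scaling and turned to 0.50 with spike-in scaling. Quantile normalization gave -0.75 and median centring -0.62, and neither passed. The call rested on single arrays, since the difference was -0.86 (adjusted p = 0.115) without naive replicate 1 and -1.06 (adjusted p = 0.0587) without Ag-B7 replicate 2. Measured from the median gene it was -1.03.

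No Gadd45a difference from Ag-B7 alone passed the test with either cytokine at 48 h. Ag-B7 with IL-12 had 499, 202 and 243, and Ag-B7 with IFNa/b had 78.8, 272 and 216, both within or around the range of Ag-B7 alone. The log2 difference from Ag-B7 was 0.23 ± 0.44 for IL-12 (95% interval -0.70 to 1.15, adjusted p = 0.998), and it was -0.12 without IL-12 replicate 1. It was -0.41 ± 0.44 for IFNa/b (95% interval -1.33 to 0.51, adjusted p = 1). Read by replicate number, IL-12 minus Ag-B7 was 0.37, 0.38 and 0.40, but the labels give no pairing. Other matches change sign, as IL-12 replicate 2 (202) lay below Ag-B7 replicate 1 (376). With the replicate block the difference was 0.38 and was not called.

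The single arrays placed Gadd45a low at 24 h and higher at 72 h. At 24 h it was 165 with IL-12, 156 with IFNa/b and 175 in Ag-B7 alone, a range narrower than that between replicates at 48 h. At 72 h it was 333 with TSA, 805 with IL-12, 419 with IFNa/b and 449 in Ag-B7 alone. IL-12 had the highest value at 72 h and TSA the lowest. TSA stood at -1.16 from IL-12 on the log2 scale (2.24-fold lower), where 9.88% of genes were at least 2-fold lower, so that TSA was above IL-12 for Gadd45g and below it for Gadd45a in the same cultures.

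**Figure D3:**
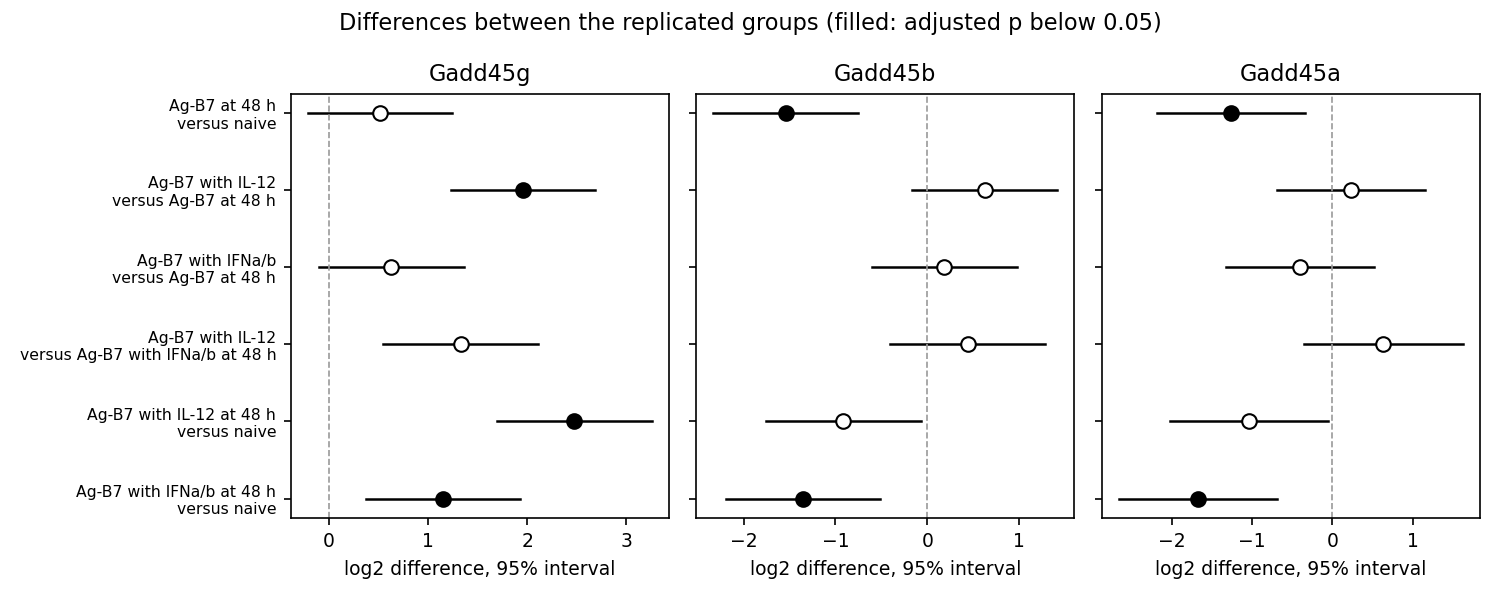
Log2 differences of Gadd45g, Gadd45b (main probe set) and Gadd45a between the replicated groups with 95% intervals from limma, filled where the adjusted p was below 0.05, with the deposited scaling. Gadd45g is filled for IL-12 against Ag-B7 (1.96), while Gadd45b (-1.54) and Gadd45a (-1.26) are filled below 0 for Ag-B7 against naive, a direction that turns with spike-in scaling.

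Against naive cells, Gadd45b and Gadd45a were lower in both cytokine groups with the deposited scaling, and the differences passed the test with IFNa/b. Gadd45b differed by -1.35 ± 0.40 with IFNa/b (adjusted p = 0.00873) and by -0.91 ± 0.40 with IL-12 (adjusted p = 0.0587). Gadd45a differed by -1.67 ± 0.47 with IFNa/b (adjusted p = 0.00616) and by -1.04 ± 0.47 with IL-12 (adjusted p = 0.0651). Both genes were called lower with IFNa/b, where 33.1% of genes were called lower and 35.4% had all arrays lower. Neither was called with IL-12, where 34.0% of genes were called lower and 34.8% had all arrays lower. The direct comparison of IL-12 with IFNa/b gave 0.44 for Gadd45b and 0.63 ± 0.47 for Gadd45a (adjusted p = 0.999 for each). All 4 of these differences from naive turned positive with spike-in scaling, at 0.50 with IFNa/b and 0.65 with IL-12 for Gadd45b, and at 0.18 with IFNa/b and 0.53 with IL-12 for Gadd45a. With IFNa/b, quantile normalization (-1.12, adjusted p = 0.0852) and median centring (-1.05, adjusted p = 0.0861) ended the Gadd45a call, and median centring (-0.73, adjusted p = 0.14) ended the Gadd45b call. Without naive replicate 3, Gadd45b with IFNa/b missed the threshold (adjusted p = 0.0508). The IL-12 values for Gadd45b passed without naive replicate 2 (0.0457), Ag-B7 replicate 2 (0.0374), IL-12 replicate 1 (0.0417) or IFNa/b replicate 1 (0.0466), and those for Gadd45a without naive replicate 2 (0.032) or IL-12 replicate 1 (0.0339).

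Ordered by mean log2 value over the 11 groups, each member had its own sequence. Gadd45g was highest with TSA at 72 h (12.25), followed by IL-12 at 48 h (11.60), 72 h (11.41) and 24 h (11.33), and then by IFNa/b at 48 h (10.27). The gap of 1.06 below IL-12 at 24 h exceeded the residual SD of 0.53, as did those below TSA at 72 h and IFNa/b at 48 h, whereas neighbours among the other groups, which end with IFNa/b at 72 h (8.50), lay within it. Gadd45b, in its main probe set, was highest with IFNa/b at 24 h (10.41), IL-12 at 24 h (10.32) and in naive cells (10.16). The step from naive cells to Ag-B7 at 24 h was the one gap above its residual SD. The second Gadd45b probe set had the opposite sign for that step, with 8.53 in naive cells and 10.28 in Ag-B7 at 24 h. For Gadd45a, the order began with IL-12 at 72 h (9.73) and naive cells (9.45) and ended with IFNa/b at 24 h (7.66), with every gap between neighbours within the residual SD of 0.65. Over the 11 group means Pearson's r was -0.26 for Gadd45a and Gadd45b, 0.02 for Gadd45a and Gadd45g, and 0.06 for Gadd45b and Gadd45g. Without the naive group it was -0.55 for Gadd45a and Gadd45b, 0.15 for Gadd45a and Gadd45g, and 0.18 for Gadd45b and Gadd45g. These points share arrays and scaling, and 7 of the 11 groups are single arrays. The residual SD set beside the gaps is the spread of an array around its group mean. A gap that involves a single array has a larger spread than that, so gaps above the residual SD are not shown to be separations.

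Among the 6278 genes tested, the genes whose group means followed Gadd45g most closely were Atp6v1b2 (r = 0.88), a subunit of the vacuolar proton pump, Sema7a (0.88), a membrane-anchored semaphorin, Ccnd3 (0.86), a D-type cyclin, Id2 (0.85), an inhibitor of E proteins active in effector CD8 T cells, and Prss2 (0.85), a trypsin. For Gadd45b they were Ranbp3 (0.91), Mdn1 (0.90), Asb6 (0.90), Capn10 (0.88) and the chemokine Ccl9 (0.87). For Gadd45a they were Hps1 (0.98), Prss30 (0.97), Hcfc1r1 (0.97), the T-box factor Tbx6 (0.96) and Gpsm3 (0.96). For orientation, the 99th percentile of r over all genes tested was 0.64 for Gadd45g, 0.74 for Gadd45b and 0.92 for Gadd45a. None of the 5 genes like Gadd45g passed the test for IL-12 against Ag-B7 at 48 h, where Sema7a had a log2 difference of 0.97 ± 0.39, Id2 0.92 ± 0.35 and Ccnd3 0.55 ± 0.16, with adjusted p of 0.631, 0.54 and 0.266 in limma. Prss2 had 0.44 ± 0.39 and Atp6v1b2 0.12 ± 0.18. The group means of Atp6v1b2 ran from 11.54 to 11.93, so its likeness to Gadd45g is in shape and not in size.

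**Figure D4:**
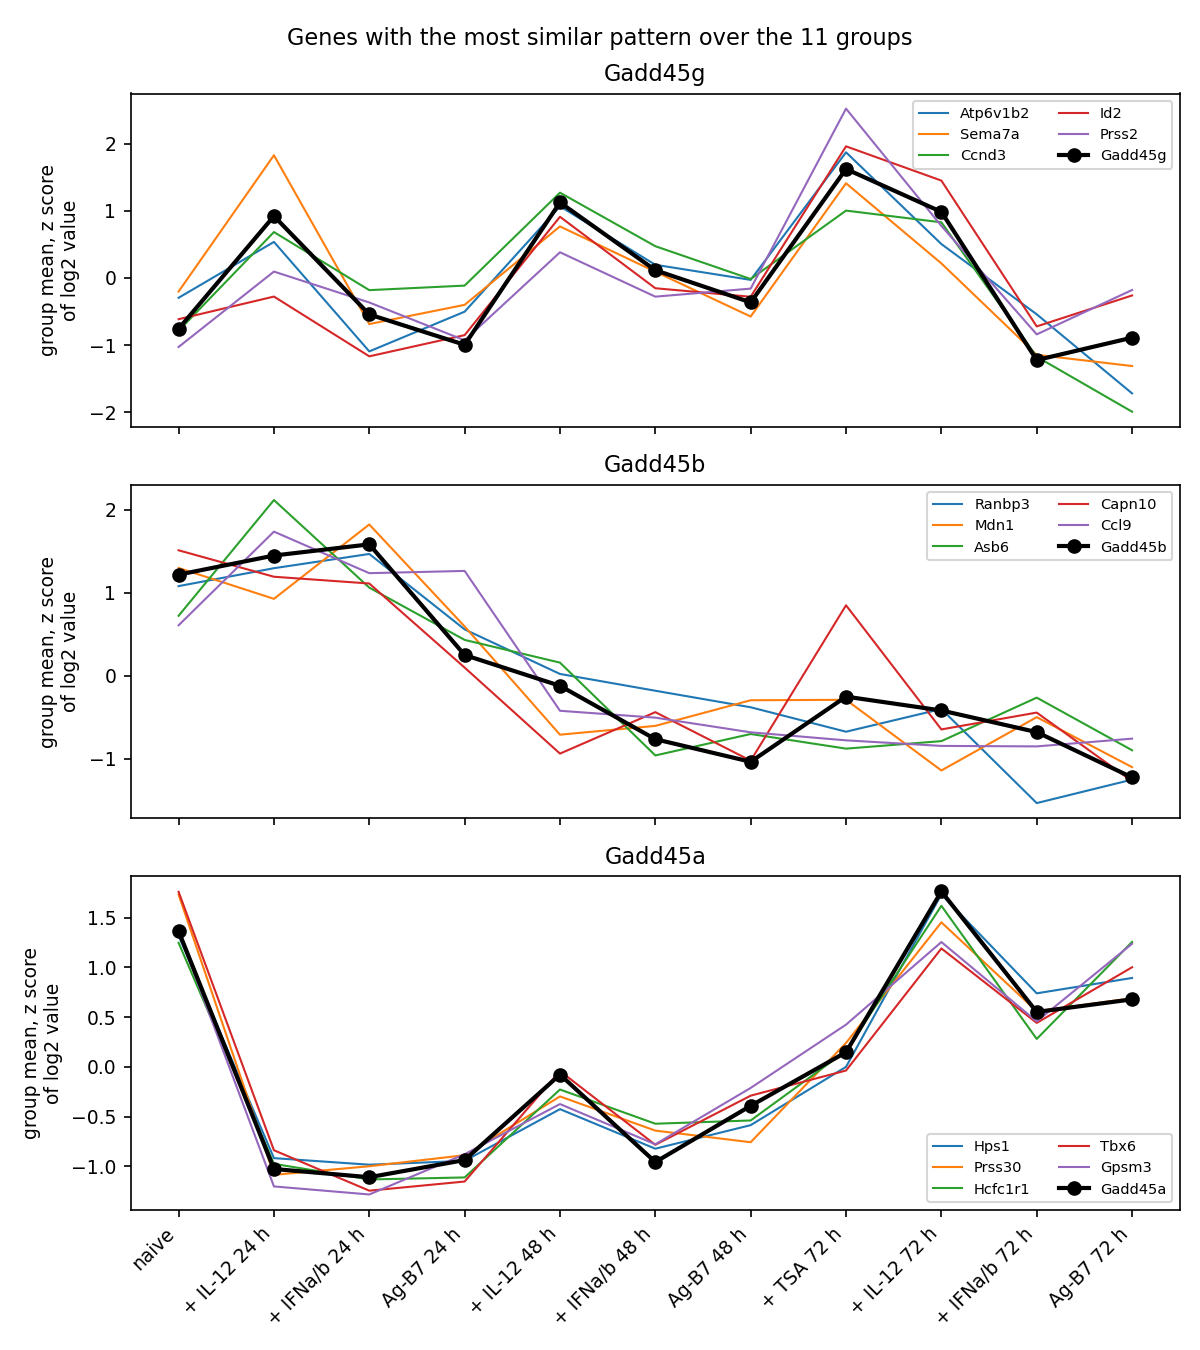
Group means of log2 values, each gene scaled to mean 0 and SD 1 over the 11 groups (z score), for each member (black) and the 5 genes with the highest Pearson correlation to it (colours). The Gadd45g panel peaks in the cultures with IL-12 and with TSA, the Gadd45b panel (main probe set) in naive cells and at 24 h, and the Gadd45a panel in naive cells and at 72 h. The genes were selected for this likeness, and z scores do not show the size of a change.

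The genes around the family were read from 8 lists of the routes in which GADD45 proteins act. With IL-12 against Ag-B7 at 48 h, the list of the IL-12 and interferon-gamma axis was the only one with a called gene. In it 3 of 12 tested genes rose and none fell, where 0.382% of all genes were called higher. The median log2 difference was 0.96 where the median of all genes was -0.01. Earlier results of these data were known when the list was chosen, so its count and median are no independent test. Ifng, the gene of interferon-gamma, rose by 4.16 ± 0.49 (adjusted p = 0.000243), Il18r1, a chain of the IL-18 receptor, by 2.17 ± 0.38 (adjusted p = 0.0123) and Fasl, a death ligand, by 1.67 ± 0.33 (adjusted p = 0.0245). The Ifng call held without any single array, with adjusted p up to 0.00346, but without IL-12 replicate 1 it was the 1 call of the list, as Il18r1 then had an adjusted p of 0.0832 and Fasl 0.166. Il18r1 also missed without IL-12 replicate 2 (0.0509) or 3 (0.0659), and Fasl without any one of the Ag-B7 arrays (0.0539 to 0.0761), without IL-12 replicate 3 (0.195) and with the replicate block (0.089). Among the 6 tested myeloid markers, Ctss fell by 1.45 with an adjusted p of 0.0111 in limma. The rest of them lay slightly above 0 and were not called: C1qb at 0.02, Csf1r at 0.12, Cd14 at 0.18, Cd68 at 0.27 and Itgax at 0.63. The summed myeloid signal was 2426 to 2705 with IL-12 and 2486 to 5068 in Ag-B7. The summed signal of the 2 NK cell markers on the array, neither of which passed the filter, was 62.5 to 150.3 with IL-12 and 29.5 to 83.4 in Ag-B7. The part of other cells in these results was not tested.

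The other 7 lists held no called gene for IL-12 against Ag-B7, where 0.382% of all genes were called higher and 0.239% lower. At these shares lists of this size hold few calls or none, so the absence of calls is not read as a lack of response. In the list of the p38 and JNK kinase route 0 of 20 tested genes were called, and the median difference was 0.10. Map3k4, the kinase that GADD45 proteins bind, had a difference of 0.08 ± 0.27 for IL-12 and -0.09 ± 0.27 for IFNa/b against Ag-B7, with adjusted p of 0.998 and 1. Between IL-12 and IFNa/b the Map3k4 difference was 0.18 (adjusted p = 0.999). The MAP kinase phosphatase Dusp6 had -1.92 ± 0.47 for IL-12 (adjusted p = 0.0898), and the NF-kappaB coactivator Bcl3 had 2.09 ± 0.50 (adjusted p = 0.0753). Cdkn1a, which encodes p21, had 1.19 ± 0.39 (adjusted p = 0.373) and passed with the replicate block, at 1.49 with an adjusted p of 0.0131. The block estimate does not draw on Ag-B7 replicate 4. With IFNa/b against Ag-B7, where 0.414% of genes were called higher, the single call in all 8 lists was Ifng, at 2.48 ± 0.49 (adjusted p = 0.0278). That call was lost without Ag-B7 replicate 1, 2 or 3 (0.0545 to 0.107) and without any single IFNa/b replicate (0.0702 to 0.193). Median centring left no call in the Ifng list (Ifng at 0.0573). Between IL-12 and IFNa/b, where 0.287% of genes were called higher and 0.653% lower, the single call was Il18r1, at 2.56 ± 0.41 (adjusted p = 0.00247).

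Against naive cells many more of these genes were called in Ag-B7 at 48 h, where 61.7% of all genes were called in either direction. In the p38 and JNK route 11 of 20 tested genes were lower and 1 higher in Ag-B7 at 48 h against naive, with a median of -0.76 where the median of all genes was -0.23. Jun, a subunit of AP-1, differed by -2.28 (adjusted p = 0.000804), and the p38 and MAP kinase targets Elk1 by -1.58 (0.000567) and Mef2d by -1.34 (0.000123). Map3k4 differed by -0.66 (adjusted p = 0.042), which was lost with the replicate block (0.124) and turned to 1.11 with spike-in scaling. With spike-in scaling 10 of these 20 genes were higher and 0 lower, and without naive replicate 2 or 3 the lower count was 7. Median centring gave 4 higher and 2 lower, and quantile normalization 1 higher and 5 lower. In the list of NF-kappaB and its targets, 7 of 13 fell with the deposited scaling. Among them were the inhibitors Tnfaip3 (-4.93) and Nfkbia (-1.94) and the coactivator Bcl3 (-2.78). With spike-in scaling 6 were higher and 1 lower. Median centring left 3 lower and 1 higher.

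The shares over all genes in this comparison were 26.1% called higher and 35.6% called lower, and several of the counts that follow are near them. In the list of cell cycle partners of GADD45 proteins 5 of 6 tested genes rose in Ag-B7 at 48 h against naive and none fell, under every scaling at least 5, with Cdk1 at 5.61 ± 0.17, the mitotic kinase gene Aurka at 2.97 ± 0.18 and Ccnb2, a cyclin B, at 2.51 ± 0.25, each with an adjusted p of at most 5.45e-07. Of 14 genes in the p53 list 5 rose and 1 fell, with Gtse1 at 2.82, Perp at 2.58 and Btg2 at -1.40. Of 15 stress response genes 4 rose and 3 fell, with Ddit4, an inhibitor of mTOR signalling, at 4.47 and Ppp1r15a, also called Gadd34, at -2.69. Of 12 genes in the IL-12 and interferon-gamma axis 5 rose and 2 fell, with granzyme B (Gzmb) at 5.75, Ifng at 2.22 and the IL-12 receptor chain Il12rb2 at 2.10. Of 13 genes of DNA repair and demethylation 5 rose and 3 fell, with Uhrf1, which guides maintenance methylation, at 4.34 and Ercc2 at -1.26. Of 5 MAP kinase phosphatases 1 rose and 1 fell, Dusp6 at 1.80 and Dusp1 at -3.13. With spike-in scaling the negative values of Btg2 and Ercc2 turned to 0.37 and 0.51. Scaling moved these counts too. With spike-in scaling the counts were 11 higher and 0 lower in the p53 list, 11 and 0 in the stress list, 8 and 0 in the IL-12 and interferon-gamma axis, 10 and 0 in the repair list, and 4 and 1 among the phosphatases. Median centring gave 10 higher and 1 lower in the stress list, 5 and 0 in the p53 list and in the IL-12 and interferon-gamma axis, and 5 and 1 in the repair list, and quantile normalization gave 6 and 2 in the stress list, 5 and 1 in the IL-12 and interferon-gamma axis, 4 and 1 in the repair list, and 1 and 2 among the phosphatases. Single arrays moved the smaller counts. The p53 list had 4 lower without Ag-B7 replicate 4 and 2 lower without any one naive replicate, and the stress list had 7 higher without Ag-B7 replicate 1. In the IL-12 and interferon-gamma axis 4 were lower without Ag-B7 replicate 1, 1 without Ag-B7 replicate 3 or naive replicate 3, and 0 without naive replicate 1. The count of lower stress genes and of lower repair genes became 2 without naive replicate 2, among other arrays, and the phosphatases had 2 lower without it.

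**Figure D5:**
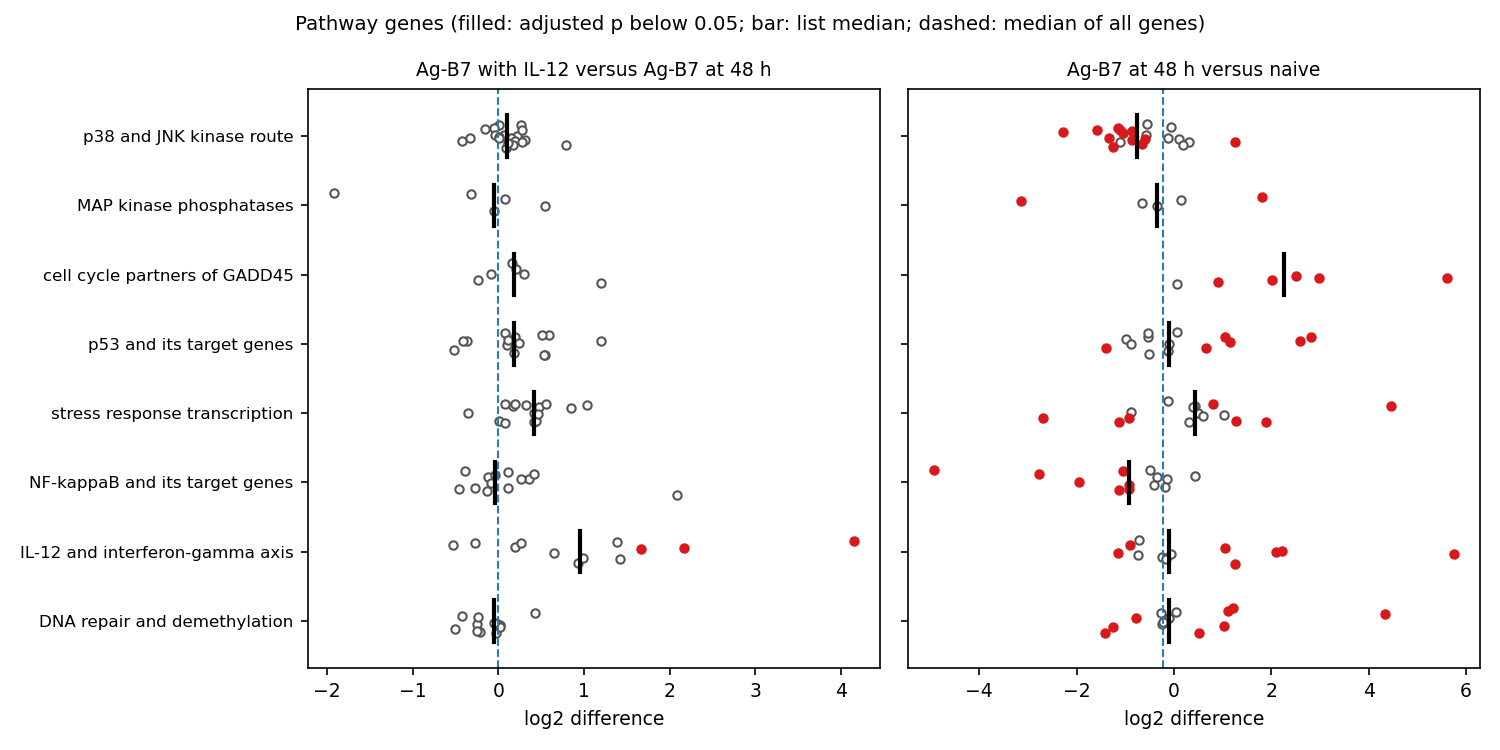
Log2 differences of the genes of 8 lists for IL-12 against Ag-B7 at 48 h and for Ag-B7 at 48 h against naive, with the deposited scaling. Each point is a gene, filled where limma's adjusted p was below 0.05; black bars are list medians and dashed lines the median of all 6278 genes, and with IL-12 only Ifng, Il18r1 and Fasl are filled, while with spike-in scaling the median gene of the comparison with naive cells lies at 1.54 instead of -0.23.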

How the data were processed

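Expression was measured on 20 Affymetrix mouse expression arrays, grouped by their labels. The deposited intensity values are MAS5 signals per the submitters' processing notes, whose version is not given in the sources used here, and each array had a trimmed mean between 999.765 and 999.856. From them log2(intensity + 46.5) was computed, 46.5 being the 20th percentile of a typical array. Of 12488 probe sets 10833 had 1 gene symbol and 396 several, and each gene was read from its brightest probe set. A filter at the 40th percentile on 3 of 13 arrays left 6278 genes. R 4.3.3 with limma 3.58.1 (a variance trend, 4 replicated groups, 13 arrays) gave every adjusted p, after Benjamini-Hochberg over all genes, called at 0.05. Python 3.11.15, pandas 2.3.3 and matplotlib 3.10.9 served the promoters and plots. Tested on simulated data for IL-12 against Ag-B7 at 48 h over 6278 genes, the fit recovered 42% of 100 genes changed by 1 on the log2 scale and 89% of 100 changed by 2, with 5 false calls.

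Same-numbered arrays deviated together for Ag-B7 with IL-12 and Ag-B7 at 48 h (correlations 0.276 to 0.280, 3 pairs), but not in every pair of the other groups. The labels give no pairing, and different-numbered arrays of Ag-B7 and Ag-B7 with IFNa/b reached 0.454. Named genes are the members, MAP3K4 as the kinase they bind, the 5 genes most like each member, and genes of the lists. List genes were drawn from the 3 with the largest change among those called, or the largest change where none was called. Not every gene that met this rule is named. The members and lists were chosen with earlier results of these data known. The number of arrays limits the precision.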

Additional observations from a re-analysis of the deposited data

Results flagged for a closer look

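Some additions had effects of opposite sign at different times, each resting on single arrays at 24 h and 72 h, and the difference between times was not tested. For Gadd45a, IL-12 minus Ag-B7 was 0.78 on the log2 scale at 72 h and -0.06 at 24 h, a value far within the residual SD of 0.65 that turned to 0.02 with spike-in scaling, so its sign carries no weight. For Gadd45g, IFNa/b minus Ag-B7 was -0.44 at 72 h, against 0.59 at 24 h and 0.63 at 48 h, where 3 arrays with IFNa/b entered. The 72 h value became 0.15 with spike-in scaling.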

How the results depend on the processing

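Of the members' 18 differences under all alternatives, 385 values kept direction and call, 13 lost the call, 11 gained it and 11 changed sign. The cause was not tested in any of them. Against naive cells the values that follow changed call or sign, and those of Gadd45a and Gadd45b below 0 for Ag-B7 and IFNa/b missed the threshold. For Ag-B7, Gadd45a was -0.75 with quantile normalization, -0.62 with median centring and 0.50 with spike-in scaling, Gadd45b was -0.90 with median centring, 0.23 with spike-in scaling and -0.87 in its second probe set, and Gadd45g was 1.04, 1.16 and 2.29 under the 3 scalings. For IL-12, Gadd45a was 0.53 with spike-in scaling, and Gadd45b was 0.65 with spike-in scaling, -0.86 with a pseudocount of 100 and 0.78 in its second probe set. For IFNa/b, Gadd45a was -1.12 with quantile normalization, -1.05 with median centring and 0.18 with spike-in scaling, and Gadd45b was -0.73 with median centring, 0.50 with spike-in scaling and 0.74 in its second probe set.

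Between stimulated groups, Gadd45g with IL-12 against Ag-B7 was 1.76 with spike-in scaling (adjusted p = 0.252). Genes called there numbered 39, and 23 with median centring, 7 with spike-in scaling and 24 without a variance trend. With spike-in scaling 14 genes were called for IFNa/b against Ag-B7 (27 otherwise) and 37 for IL-12 against IFNa/b (59 otherwise). At 72 h, IFNa/b minus Ag-B7 was 0.96 for Gadd45b and 0.15 for Gadd45g with spike-in scaling. With the replicate block Gadd45b in IL-12 against naive was -0.91 (adjusted p = 0.0341), Gadd45g in IL-12 against Ag-B7 was 2.22, and the block changed no other member's call. Same-numbered correlations were -0.097 to 0.112 for Ag-B7 with IFNa/b and -0.022 to 0.077 for IL-12 with IFNa/b. They were -0.060 to 0.145 for naive with Ag-B7 and -0.035 to 0.274 for naive with IL-12. The numbers were not shown to pair these arrays, so calls that only the block gave there are listed as a dependence on the model and not as results. As replicate 4 exists in Ag-B7 alone, its block level absorbs that array, and no block estimate draws on it. With the block, IFNa/b against Ag-B7 gave Cdkn1a at 1.23 (adjusted p = 0.0328), Atf3 at 1.97 (0.0193) and Nupr1 at 2.10 (0.0274), none called without it, and IL-12 against IFNa/b gave Ifng at 1.68 (0.0397) and Atf3 at -1.92 (0.014), likewise.

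Without single arrays, Ag-B7 against naive ranged from -1.58 to -0.86 for Gadd45a. IL-12 against Ag-B7 ranged from -0.12 to 0.45 for Gadd45a and from 1.56 to 2.29 for Gadd45g, with 16 (without IL-12 replicate 1) to 54 genes called (without naive replicate 2). IFNa/b against Ag-B7 ranged from -0.17 to 0.41 for Gadd45b (-0.10 without Ag-B7 replicate 2), with 14 (without IFNa/b replicate 2, and 15 without replicate 1) to 32 genes called. IL-12 against naive ranged from -1.38 to -0.64 for Gadd45a and from -1.15 to -0.61 for Gadd45b, and IFNa/b against naive from -1.71 to -1.05 for Gadd45b and from 0.85 to 1.30 for Gadd45g.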
